A study of Mus musculus with 6 samples.

Results

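Type I interferon-induced genes are the genes that a cell switches on when interferon alpha or beta binds its receptor. The set described here holds 39 mouse genes chosen by symbol, among them the Ifit, Oas and Oasl families, Isg15, Rsad2, Irf7, Stat2, Bst2 and Ifitm3. All 3 feature tables list 37 of the 39, out of 30406 genes that the 3 tables share. Mx1 is listed in 1 table only and Mx2 in none, and both are annotated as transcribed pseudogenes in the RefSeq assembly GRCm38.p6, so the values below are for 37 members.

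The cells came from brains of C57BL/6 mice aged 12 weeks. Animals were perfused with cold saline, tumor-bearing hemispheres or whole control brains were dissociated, and cells positive for CD11b (a surface integrin of myeloid cells and NK cells) were kept. The study has 6 groups with 3 samples each: females and males without a tumor, females and males at day 14 after glioma implantation, and females and males at day 21. Each of 3 pools combined 1 sample of every group, marked by antibodies that carry a barcode (hashtags 1 to 6), and was measured by CITE-seq, which counts messenger RNA molecules and antibody tags for surface proteins in the same droplet. The labels do not say which hashtag marked which group, so no comparison between sexes, days or control and tumor could be made, and no hashed sample is given a group below. Nor do they say how many animals stand behind a sample, so the spread between hashed samples may hold less than the spread between animals.

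Interferon alpha and beta bind the receptor Ifnar1/Ifnar2, whose kinases Jak1 and Tyk2 phosphorylate Stat2. A complex that holds Stat2 and Irf9 then binds a short DNA motif, the interferon-stimulated response element, in front of the induced genes. The products block virus at many steps, and some of them, Usp18 among them, damp the signal again. In brain tumors, resident microglia share the tissue with monocytes, macrophages and dendritic cells that entered from blood, and with NK cells, and each of these cells can respond to interferon.

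The short sequences below show that motif where it lies just ahead of the gene for 7 members with very different levels, with every match to the interferon-stimulated response element, on either strand, in capitals. They are RefSeq promoter sequence of build GRCm38.p6, read 5′ to 3′ on the strand of the gene. Those of Isg15, Ifit1, Rsad2, Bst2 and Stat2 lie upstream of the annotated gene, and those of Ifit3 and Ifit3b lie within the annotated gene span, upstream of a further transcript start. A match that runs past the edge of a window is in capitals only up to that edge.
Isg15, chr4:156200858-156200901, minus strand: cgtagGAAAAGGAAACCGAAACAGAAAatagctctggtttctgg
Bst2, chr8:71537570-71537613, minus strand: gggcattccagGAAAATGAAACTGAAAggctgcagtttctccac
Ifit1, chr19:34640787-34640830, plus strand: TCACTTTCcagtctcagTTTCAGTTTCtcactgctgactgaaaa
Ifit3, chr19:34583390-34583433, plus strand: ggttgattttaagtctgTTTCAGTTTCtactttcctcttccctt
Ifit3b, chr19:34607786-34607829, plus strand: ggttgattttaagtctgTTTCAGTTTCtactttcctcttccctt
Rsad2, chr12:26456546-26456589, minus strand: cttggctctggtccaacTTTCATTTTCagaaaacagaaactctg
Stat2, chr10:128270259-128270302, plus strand: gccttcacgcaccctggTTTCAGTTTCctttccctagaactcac

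Within the 300 bases from 250 before to 50 after a RefSeq start, the interferon-stimulated response element was found on either strand in 15 of the 29 members that the table holds (51.7%), against 1079 of all 27025 genes (3.99%). Overlapping matches count separately, and 7 promoters of members held at least 2. The windows of Ifit3 and Ifit3b are identical letter for letter. These neighbours lie on chromosome 19 with Ifit2, Ifit1bl1 and Ifit1 between positions 34550550 and 34662981, and the annotated span of Ifit1bl1 covers those of Ifit3b and Ifit1. Counts can be split between such near copies, so the values of Ifit3, Ifit3b, Ifit1, Ifit1bl1 and Trim30a are uncertain gene by gene. A match is a description of the letters and not evidence of binding, and 14 of the 29 had none.

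Pools 1, 2 and 3 hold 13925, 11010 and 11820 cell barcodes with medians of 4451, 8129 and 4689 RNA molecules (unique molecular identifiers, UMIs). A barcode was given to a hashed sample when 1 hashtag held at least 80% of its hashtag UMIs, which placed 10906, 9351 and 1888 cells. Only 16.1% of the kept barcodes of pool 3 passed, since most of them carried mixed hashtags, so pool 3 adds little weight. Cells were clustered without interferon-induced genes, and clusters were named from marker genes: 10126 microglia-like cells in 18 hashed samples, 4499 macrophage-like, 3637 monocyte-like, 938 dendritic cell-like and 648 NK cell-like cells, with 1978 cells unnamed. Microglial markers summed to a median of 18620 CPM (UMIs of a gene or list scaled to a common library total) in microglia-like cells against 871 in macrophage-like and 523 in monocyte-like cells. Monocyte markers summed to 8392 CPM in monocyte-like and 1207 CPM in macrophage-like cells, while the macrophage list was less specific, at 6727 CPM in macrophage-like and 5209 CPM in monocyte-like cells. Dendritic cell-like cells had medians of 3039 CPM for dendritic, 2365 for monocyte and 1234 for microglial markers. By marker score (the mean level of a list's genes relative to the highest cluster), neither monocyte-like cluster scored highest for the monocyte list. The cluster of 2897 cells scored 0.449 for macrophage and 0.382 for monocyte. The cluster of 740 cells scored 0.676 for patrolling monocyte and 0.647 for monocyte. Both took the name from monocyte markers among their leading genes. Smaller named clusters, among them 127 border macrophage-like cells, were left out of the comparisons. Macrophage-like, monocyte-like, dendritic cell-like and NK cell-like cells reached 20 cells per hashed sample only under hashtags 3 to 6. Comparisons between classes therefore rest on those samples. In 3 pairs of pools, 32 to 53 barcodes were the same.

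By median over hashed samples, monocyte-like cells carried the most interferon-induced RNA of the 5 classes and NK cell-like cells the least. The members together made up a median of 268 of every 10000 UMIs of a monocyte-like cell, with hashed samples between 172 and 352 (n = 11). Dendritic cell-like cells followed at a median of 184 (115 to 240, n = 10) and macrophage-like cells at 117 (61.5 to 255, n = 11). Neighbours in this order overlapped: the highest macrophage-like sample lay above the lowest monocyte-like one. Microglia-like cells had a median of 43.8 (9.01 to 84.4, n = 18) and NK cell-like cells 22.7 (13.5 to 59.4, n = 9), and these also overlapped. The macrophage-like and microglia-like ranges overlapped at their ends, where 2 microglia-like samples lay above the lowest macrophage-like one.

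**Figure D1:**
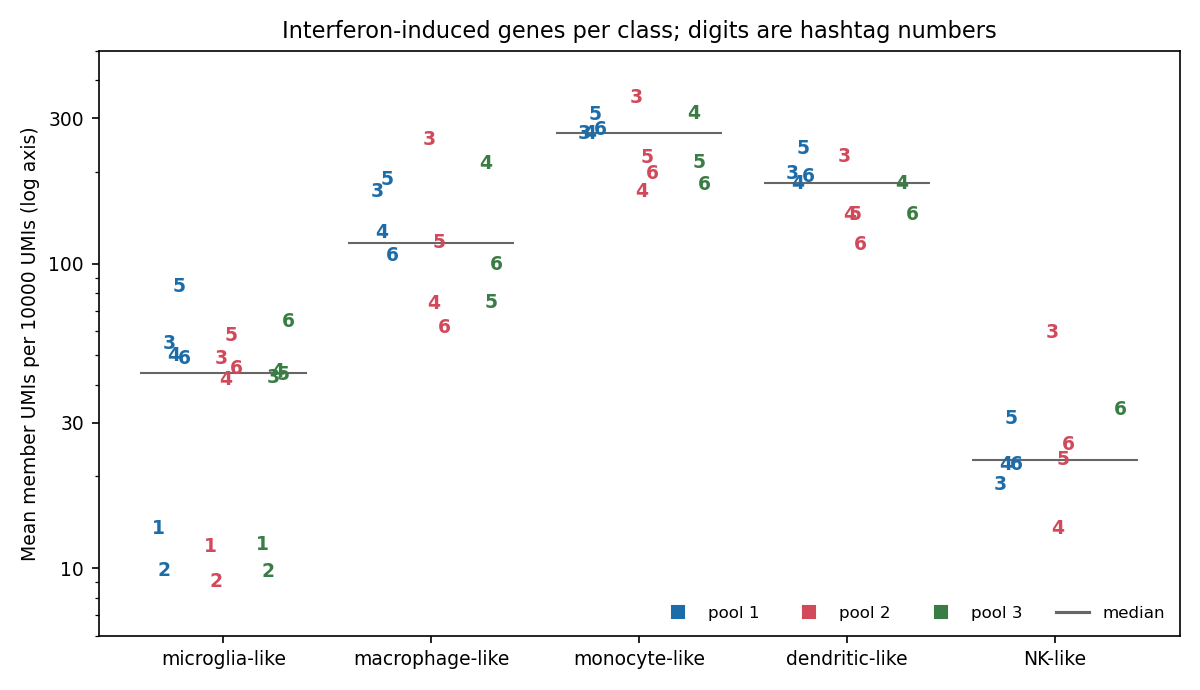
Mean per-cell sum of the 37 members per 10000 UMIs (vertical axis, log scale) in each class (horizontal axis). Each digit is 1 hashed sample and gives its hashtag, colors give the pool, and lines mark the medians, which run from 22.7 in NK cell-like to 268 in monocyte-like cells.

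The order was the same at equal depth. With cells thinned to 2000 UMIs the medians were 265 in monocyte-like, 186 in dendritic cell-like, 116 in macrophage-like, 44.5 in microglia-like and 22.6 in NK cell-like cells. Cells below 2000 UMIs were left out of thinned values: 74 monocyte-like, 30 dendritic cell-like, 160 macrophage-like, 372 microglia-like and 100 of 612 NK cell-like cells. Much of the sum comes from 3 members, Ifitm3, Ifi27l2a and Isg15. Without them the medians were 105 in monocyte-like, 72.6 in dendritic cell-like, 57.5 in macrophage-like, 28.6 in microglia-like and 20.1 in NK cell-like cells. The order stayed the same, and the gap between monocyte-like and NK cell-like cells was smaller than with all members.

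As the ratio of the highest to the lowest sample, the spread was narrower in monocyte-like and dendritic cell-like cells than in the other 3 classes. Besides, 1 hashed sample stood high in several classes. Hashtag 3 of pool 2 had the highest sum of all samples in monocyte-like (352), macrophage-like (255) and NK cell-like cells (59.4). In dendritic cell-like cells it came second at 225, below 240 under hashtag 5 of pool 1. In microglia-like cells the same sample, at 48.8, was near the middle, and the highest was hashtag 5 of pool 1 at 84.4. The lowest macrophage-like sums were 61.5 and 74.1, under hashtags 6 and 4 of pool 2. Monocyte markers moved with the macrophage-like sums: they summed to between 3398 and 6710 CPM in the 4 macrophage-like samples with the highest member sums (173 to 255), and to between 825 and 1530 CPM in the other 7 (61.5 to 127), and their part in the difference was not tested. Microglia-like cells under hashtags 1 and 2 of all pools lay between 9.01 and 13.4, and those under hashtags 3 to 6 between 41.5 and 84.4, without overlap. Macrophage markers summed to between 213 and 1041 CPM in these samples, lowest and highest under hashtags 1 and 5 of pool 1, and their part was not tested.

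Within a class most cells carried a moderate load. The median thinned microglia-like cell held 35 member UMIs per 10000 and the cell at the 90th percentile 85 (medians over samples). In macrophage-like cells these values were 90 and 216, and in monocyte-like cells 225 and 455. Leaving out the 3 most abundant members, the top 10% of cells held 29.9% of the member UMIs of microglia-like cells and 25.3% of those of monocyte-like cells. Most member UMIs thus lay outside the top 10% of cells.

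The class with the highest level was the same for most single members as for the sum, and the class with the lowest level was the same for fewer. By median CPM, 34 of the 37 were highest in monocyte-like cells and 3 in dendritic cell-like cells: Herc6, an E3 ligase that attaches Isg15 to proteins, Ifi44, and the signal factor Irf9. The lowest class was NK cell-like for 22 members, microglia-like for 14 and macrophage-like for Trim30a alone, a member of the tripartite-motif family. The microglia-like medians are over all 18 samples, those under hashtags 1 and 2 included.

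**Figure D2:**
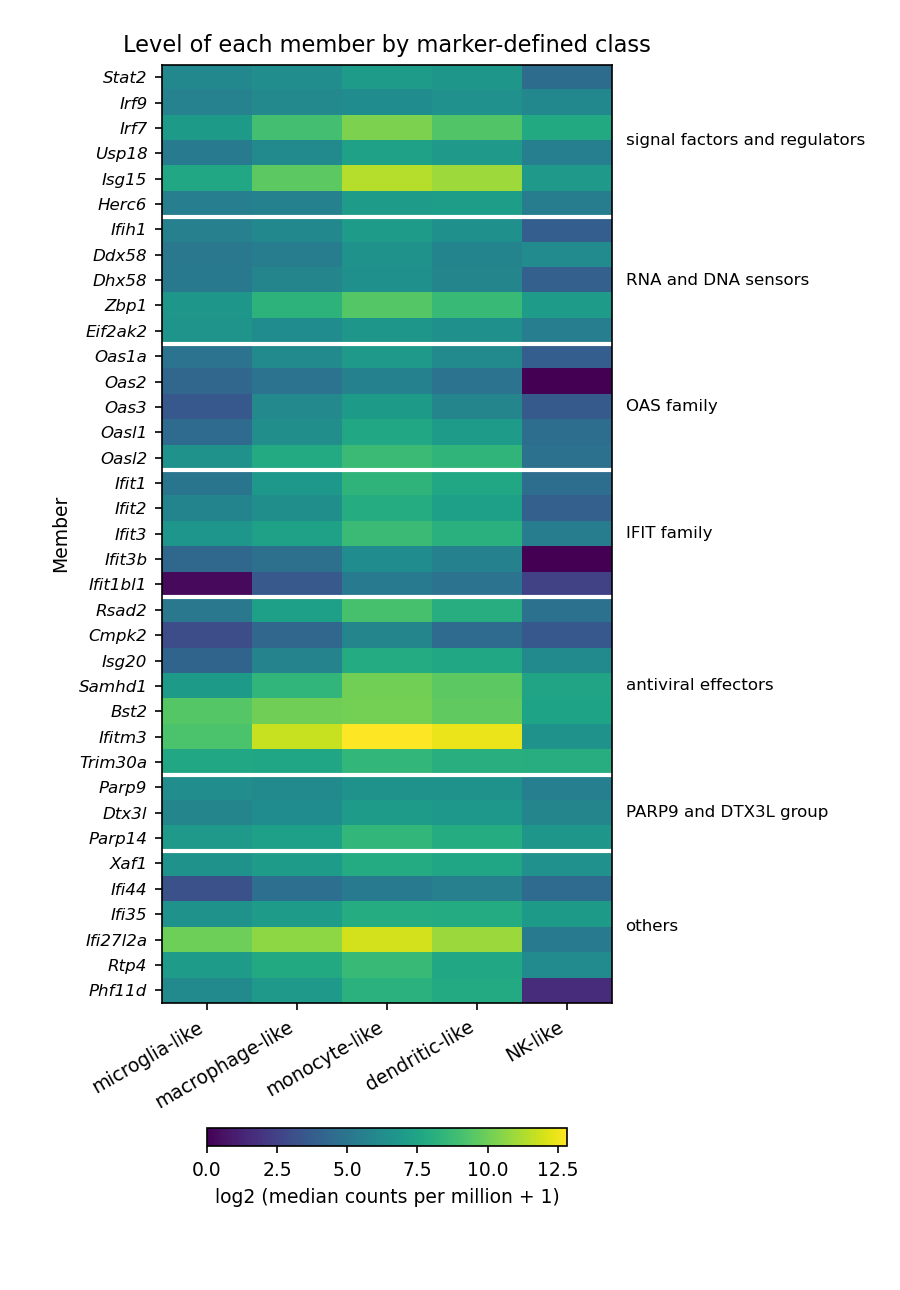
Level of each of the 37 members (rows, ordered by role) in 5 classes (columns), as log2 of the median CPM over hashed samples plus 1. The monocyte-like column is highest for 34 rows, and Ifitm3, Ifi27l2a and Isg15 are the brightest rows in it.

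Among the signal factors and regulators, Isg15, a ubiquitin-like protein that is attached to other proteins, had 1251 CPM in its lowest, 2707 in its median and 4066 in its highest monocyte-like sample. Microglia-like samples ran from 23.8 through 205 to 612 CPM, and the NK cell-like ones from 52.5 through 122 to 470 CPM. The monocyte-like and microglia-like ranges did not overlap. Irf7, the factor that amplifies interferon production, had 816, 1281 and 2392 CPM in monocyte-like samples (lowest, median, highest), against 11.9, 124 and 254 CPM in microglia-like ones. Usp18, the brake on the receptor, had 94.1, 159 and 426 CPM in monocyte-like samples and 3.08, 38.8 and 88.9 CPM in microglia-like samples. For Irf7 and Usp18 too the ranges did not overlap. Irf9, a factor of the signalling complex, varied less, with medians of 75.0 CPM in monocyte-like, 90.3 in dendritic cell-like, 64.2 in macrophage-like, 62.9 in NK cell-like and 51.2 in microglia-like cells. Stat2, its partner, had a wider range of medians, between 21.9 CPM in NK cell-like and 134 CPM in monocyte-like cells.

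The sensors of foreign nucleic acid had medians from 13.1 CPM (Ifih1 in NK cell-like cells) to 699 CPM (Zbp1 in monocyte-like cells). Zbp1, which senses left-handed nucleic acid, had 406, 699 and 827 CPM in the lowest, median and highest monocyte-like sample, against 5.74, 109 and 253 CPM in microglia-like samples, without overlap. Ifih1, the RNA sensor MDA5, had 88.2, 136 and 304 CPM in monocyte-like samples and 0 to 27.0 CPM in NK cell-like ones. Ddx58, the RNA sensor RIG-I, differed less and was higher in NK cell-like cells (median 72.5 CPM) than in macrophage-like (41.6) or microglia-like cells (33.8) by median, with overlapping ranges. Eif2ak2, the RNA-activated kinase PKR, was nearly level between monocyte-like (median 112 CPM) and microglia-like cells (98.9 CPM).

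Several products of the Ifit genes bind foreign RNA, and several Oas products make the activator of RNase L. Genes of both families had lower medians in microglia-like than in monocyte-like cells. In NK cell-like cells the medians were lower still, as for Ifit3 (40.4 CPM) and Oas2 (0 CPM), except those of Ifit1bl1, Oas3 and Oasl1. The exceptions of Oas3 and Oasl1 depend on the sample set, since only the microglia-like medians take in hashtags 1 and 2. Oas3 had 0 to 3.08 CPM in microglia-like samples under hashtags 1 and 2 and 6.20 to 25.4 CPM under hashtags 3 to 6. For Oasl1 these ranges were 0 to 4.91 and 11.99 to 67.55 CPM. Ifit3 had 235, 434 and 1173 CPM in the lowest, median and highest monocyte-like sample, 51.8, 160 and 705 CPM in macrophage-like samples and 8.61, 107 and 185 CPM in microglia-like samples. Ifit1bl1 had a median of 39.7 CPM in monocyte-like cells but only 0.234 CPM in microglia-like cells. Oas3 had 84.2, 128 and 267 CPM in monocyte-like samples and 0, 10.4 and 25.4 CPM in microglia-like samples, without overlap. Oasl2 was the most abundant of its family, with medians of 436 CPM in monocyte-like and 92.8 CPM in microglia-like cells.

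The antiviral effectors differed widely among themselves. Ifitm3, a membrane protein that blocks viral fusion, had 5383, 7291 and 9346 CPM in the lowest, median and highest monocyte-like sample, 65.8, 578 and 1598 CPM in microglia-like samples, and 45.3, 94.7 and 118 CPM in NK cell-like samples. Rsad2 (viperin, which makes a chain-terminating nucleotide) had 212, 552 and 1637 CPM in monocyte-like samples against 1.03, 34.8 and 120 CPM in microglia-like samples. Neither pair of ranges overlapped. Bst2 (tetherin, which holds budding virus at the membrane) had 883, 1120 and 2030 CPM in monocyte-like, 808, 1057 and 2216 CPM in macrophage-like and 156, 697 and 1429 CPM in microglia-like samples, all overlapping. Samhd1, which degrades nucleotides, had medians of 1109 CPM in monocyte-like, 353 in macrophage-like and 128 in microglia-like cells.

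The classes were then compared with each other, and comparisons that have monocyte-like or microglia-like cells in common share those cells. Monocyte-like cells were compared with microglia-like cells within the same 11 hashed samples, by edgeR's quasi-likelihood test on summed UMI counts with the hashed sample as a block and Benjamini-Hochberg adjustment over 9270 genes. All 37 members were higher in monocyte-like cells, where 36.2% of all genes tested were called higher and 40.4% lower. Their median log2 fold change was 2.17, against -0.06 over all genes. Ifit1bl1 differed most, at 6.06 ± 0.31 (SE, edgeR adjusted p = 2.37e-13), followed by the exonuclease gene Isg20 at 3.96 ± 0.18 (edgeR adjusted p = 3.14e-14) and Rsad2 at 3.92 ± 0.13 (edgeR adjusted p = 3.2e-16), each higher in 11 of 11 samples. Ifit1bl1 had only 32 UMIs over all 18 microglia-like samples, against 1165 in monocyte-like ones, so the size of its fold change is uncertain. The smallest differences were those of Eif2ak2 at 0.52 ± 0.09 (edgeR adjusted p = 3.17e-05, higher in 8 of 11), Parp9 at 0.53 ± 0.09 (edgeR adjusted p = 3.05e-05, 8 of 11) and Irf9 at 0.66 ± 0.08 (edgeR adjusted p = 4e-07, 9 of 11). By role, the median log2 fold change was 2.99 for the 7 antiviral effectors, 2.53 for the 5 Oas genes, 2.33 for the 5 Ifit genes, 1.95 for the 6 signal factors and regulators and 1.29 for the ADP-ribosyltransferase genes Parp9 and Parp14 with Dtx3l, the ligase partner of Parp9. With library size alone in place of TMM scaling, 35 of the 37 passed.

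Other genes of the pathway, from a fixed list of 26 that could be tested, split between the 2 classes. Of these, 15 were higher and 10 lower in monocyte-like cells, against 36.2% and 40.4% of all genes tested. The 10 lower calls are near the share over all genes. The interferon-induced chemokine genes Cxcl9 (log2 fold change 3.79) and Cxcl10 (2.22) were higher, as were the kinase gene Jak2 (2.64), the inhibitor Socs1 (2.10), the adaptor Myd88 (1.81) and the receptor chain Ifnar1 (1.26). Ccl12, a monocyte-attracting chemokine, went the other way at -3.07, as did the endosomal RNA receptors Tlr3 (-1.95) and Tlr7 (-1.20). The higher calls of Jak1, Tyk2 and Ifnar2 turned to the other side of 0 with library size alone.

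Macrophage-like cells also exceeded microglia-like cells for most members, by less. In the same 11 samples 31 of 37 were higher, against 35.3% of 9746 genes tested called higher and 37.5% called lower, and the median log2 fold change was 0.87 against -0.03 over all genes. Ifit1bl1 (4.72 ± 0.45 SE, edgeR adjusted p = 1.75e-08, higher in 10 of 11), Oas3 (2.49 ± 0.16, edgeR adjusted p = 4.55e-11, 11 of 11) and Rsad2 (2.48 ± 0.18, edgeR adjusted p = 4.34e-10, 11 of 11) differed most. The fold change of Ifit1bl1 again rests on few UMIs in microglia-like cells, 32 over all 18 samples. The least among those called were Irf9 (0.41 ± 0.09, edgeR adjusted p = 0.00036, 8 of 11), Dtx3l (0.45 ± 0.11, edgeR adjusted p = 0.00152, 7 of 11) and Ifi27l2a (0.52 ± 0.21, edgeR adjusted p = 0.0321, 7 of 11). The 6 without a call were Eif2ak2 (-0.20), Parp9 (-0.06), Trim30a (0.17), Stat2 (0.23), Herc6 (0.29) and Oas2 (0.32). Calls of this comparison moved with the clustering: with interferon-induced genes left in, 23 members were higher, Eif2ak2 and Parp9 were lower, and Ifit3 (0.70 to -0.05) and Ifit3b (0.87 to -0.18) changed sign and lost their calls. Without pool 1, Ifit3 (0.43), Ifit3b (0.62) and Ifi27l2a no longer passed (28 members higher). Without pool 2, Ifit3 did not pass either (0.76, edgeR adjusted p = 0.0536), and Oas2 did (31 higher).

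Of the pathway list, 9 of 26 were higher and 13 lower in macrophage-like than in microglia-like cells, against 35.3% and 37.5% of all genes tested. The 9 higher calls are near the share over all genes. Cxcl9 (2.43), Jak2 (1.74) and Ifnar1 (1.09) were higher, while Tlr3 (-1.98), Ccl12 (-1.62), Tlr7 (-1.32), the interferon-gamma receptor chain Ifngr1 (-1.28) and Tmem173, the DNA-sensing adaptor STING (-1.23), were lower. The calls of Irf5 and Ifngr2 turned to the other side of 0 with library size alone.

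Between the blood-derived classes, macrophage-like cells had less of 36 of the 37 members than monocyte-like cells of the same 11 samples, where 28.7% of 8657 genes were called higher and 27.4% lower. The median log2 fold change was -1.07, against 0.03 over all genes. Isg20 was lowest, at -1.90 ± 0.17 (SE, edgeR adjusted p = 6.83e-09), then Ifit1 at -1.68 ± 0.16 (edgeR adjusted p = 3.11e-08), both lower in 11 of 11 samples, and Ifit1bl1 at -1.66 ± 0.27 (edgeR adjusted p = 2.27e-05, lower in 9 of 11). Irf9 (-0.24 ± 0.07, edgeR adjusted p = 0.00543, lower in 7 of 11), Parp9 (-0.56 ± 0.06, edgeR adjusted p = 9.39e-08, 11 of 11) and Ifi44 (-0.59 ± 0.15, edgeR adjusted p = 0.00203, 8 of 11) fell least. Bst2, at -0.09 ± 0.05, did not pass (edgeR adjusted p = 0.192). Of the pathway list, 18 of 26 were lower, among them Il6 (-2.01), Cxcl10 (-1.84), Cxcl9 (-1.33), Socs1 (-1.29) and Irf1 (-1.09), and Ccl12 alone was higher (1.44).

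**Figure D3:**
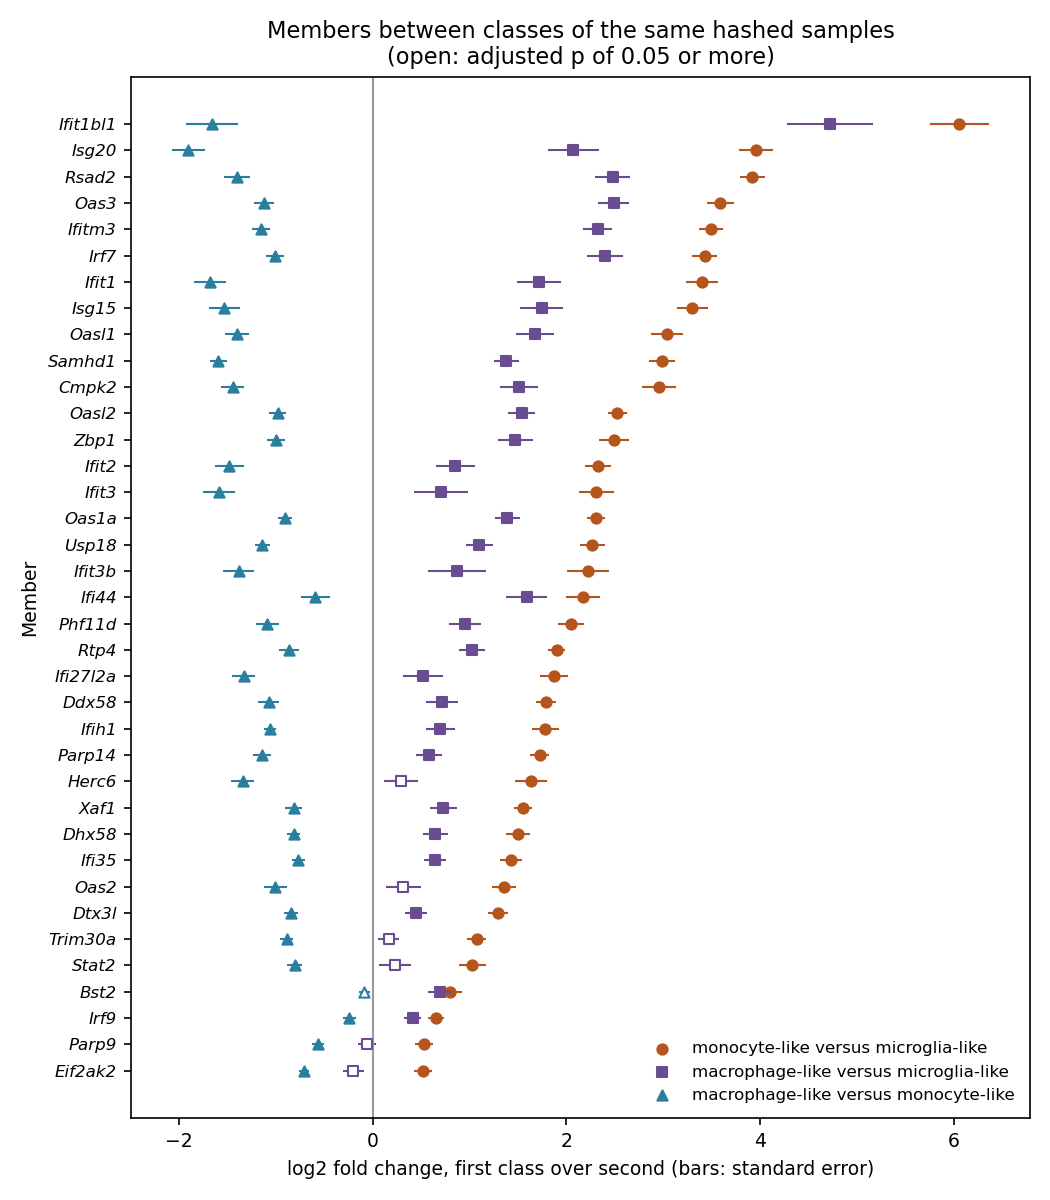
Log2 fold change of each member with its standard error in 3 comparisons of classes within hashed samples (11 samples each). Open symbols have an adjusted p of at least 0.05: none in monocyte-like against microglia-like, 6 in macrophage-like against microglia-like and Bst2 in macrophage-like against monocyte-like cells.

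In the level of the members, dendritic cell-like cells stood closest to monocyte-like cells. In 10 shared samples 32 of the 37 members were lower and 1 higher, against 25.7% and 24.3% of 7302 genes, with a median log2 fold change of -0.56 against 0.00 over all genes. Cmpk2, a mitochondrial nucleotide kinase and genomic neighbour of Rsad2, stood at -1.62 ± 0.16 (SE, edgeR adjusted p = 2.53e-08), Rsad2 at -1.46 ± 0.14 (edgeR adjusted p = 2.75e-08) and Oas3 at -1.18 ± 0.10 (edgeR adjusted p = 3.62e-09), each lower in 10 of 10 samples. Irf9 was the member that was higher, at 0.35 ± 0.08 (edgeR adjusted p = 0.00153, 9 of 10). The lowest called falls were those of Stat2 (-0.33 ± 0.10, edgeR adjusted p = 0.011), Isg20 (-0.31 ± 0.10, edgeR adjusted p = 0.017) and Dtx3l (-0.23 ± 0.09, edgeR adjusted p = 0.0376). Parp9 (-0.19), Herc6 (-0.18), Ifi35 (-0.04) and Ifi44 (0.19) did not pass. Of 25 pathway genes, 6 were higher, led by Jak2 (0.98) and the dendritic cell factor Irf8 (0.92), and 13 lower, led by Tlr7 (-1.90), Tlr4 (-1.71), Ccl12 (-1.31) and Cxcl10 (-1.11). The 6 higher calls are near the share over all genes. Without pool 2 the pathway counts were 3 higher and 8 lower.

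NK cell-like cells had the lowest median sum of the classes. All 37 members were lower than in monocyte-like cells of the same 9 samples, where 35.1% of 6284 genes were called lower and 32.0% higher, and the median log2 fold change was -2.80 against -0.03 over all genes. Ifitm3 was lowest, at -6.60 ± 0.14 (SE, edgeR adjusted p = 6.32e-30), then Phf11d at -6.10 ± 0.28 (edgeR adjusted p = 3.72e-20), each lower in 9 of 9 samples. Phf11d had only 10 UMIs in the NK cell-like samples, so the size of its fold change is uncertain. The fitted value of Oas2, -5.82 ± 0.42 (edgeR adjusted p = 1.57e-14), rests on 2 UMIs in NK cell-like cells, or 1.03 CPM with an exact 95% Poisson interval of 0.125 to 3.72 that covers counting error only, against 1308 UMIs or 49.2 CPM in monocyte-like cells. Irf9 (-0.60 ± 0.15, edgeR adjusted p = 0.000524), Trim30a (-0.66 ± 0.11, edgeR adjusted p = 3.72e-06), Ifi44 (-0.68 ± 0.23, edgeR adjusted p = 0.0118) and Ddx58 (-0.75 ± 0.14, edgeR adjusted p = 1.3e-05) fell least. Of 23 pathway genes 16 were lower, and 5 were higher: Ifng, the interferon that NK cells make (11.22), Ifngr1 (2.72), Jak1 (1.93), Irf8 (1.82) and Irf3 (0.92).

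Clusters within a class differed too, and are described here without a test, since clusters were drawn from the same cells. Of the 2 monocyte-like clusters, the one led by S100a4, Ifitm6, Cxcl10 and Chil3 had the higher member sum in 8 of 8 samples with both (medians over these samples of 315 against 236 per 10000 UMIs). This cluster scored 0.676 for patrolling monocyte markers and 0.647 for monocyte markers. With coarser clustering (Leiden resolution 0.5) a cluster of 515 cells with many of the same leading genes was unnamed. Of the 2 macrophage-like clusters, the one led by Gpnmb, Fabp5 and Spp1 was higher than the one led by Ccl8, Ms4a7 and Apoe in 8 of 9 samples with both (148 against 92.7). The dendritic cell-like cluster led by Ccr7 was higher than the one led by Ccl17 in 0 of 6 samples with both (124 against 173). Of the microglia-like clusters, the one led by Tnf, Cst7 and Ccl4 was higher than the one led by Fcrls, P2ry12 and Gpr34 in 8 of 8 samples with both (81.55 against 18.9, median ratio 4.30). The dividing cluster led by Ube2c, Stmn1 and Top2a was higher than the latter in 6 of 6 (77.4 against 18.01). Between these 2 high clusters the order was mixed: the first was higher in 2 of 7 samples with both, and in 5 of 7 without Ifitm3, Ifi27l2a and Isg15. These gene names were taken from the clusters' leading genes after the values were seen.

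Cells with and without a UMI of Ifit3 show how the members move from cell to cell. With cells thinned to 2000 UMIs, Ifit3 was detected in a median of 39.01% of monocyte-like cells (23.1% to 70.7% over 11 samples), 29.4% of dendritic cell-like, 17.3% of macrophage-like (7.82% to 54.1%), 13.2% of microglia-like (1.08% to 22.8%) and 6.06% of NK cell-like cells (0% to 23.9%). Unthinned, these shares were 67.7%, 51.2%, 43.1%, 32.3% and 7.14%, at median depths of 7756, 8930, 10720, 5263 and 3167 UMIs. No class here is known to lack Ifit3, so the share that free RNA gives was not measured. Microglia-like samples under hashtags 1 and 2, at 1.08% to 5%, lay below the NK cell-like median.

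Ifit3-positive cells carried more of the other members. In microglia-like cells Rsad2 stood at a median of 1.38 per 10000 UMIs in cells with Ifit3 and 0.181 in cells without, higher in 11 of 11 samples, and Isg15 at 6.43 against 1.92. In macrophage-like cells Rsad2 was at 7.64 against 1.06 (10 of 10 samples), Ifit1 at 3.81 against 0.639 and Cmpk2 at 0.829 against 0.110. In monocyte-like cells Ifit1 was at 5.90 against 1.12 and Isg15 at 38.1 against 15.3 (10 of 10). Bst2 differed less, at 11.1 against 5.94 in microglia-like and 13.9 against 9.39 in monocyte-like cells. Irf9 was nearly level between them: 0.632 against 0.639 in microglia-like cells, with 7 of 11 samples higher, and 0.696 against 0.739 in monocyte-like cells, with 5 of 10.

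**Figure D4:**
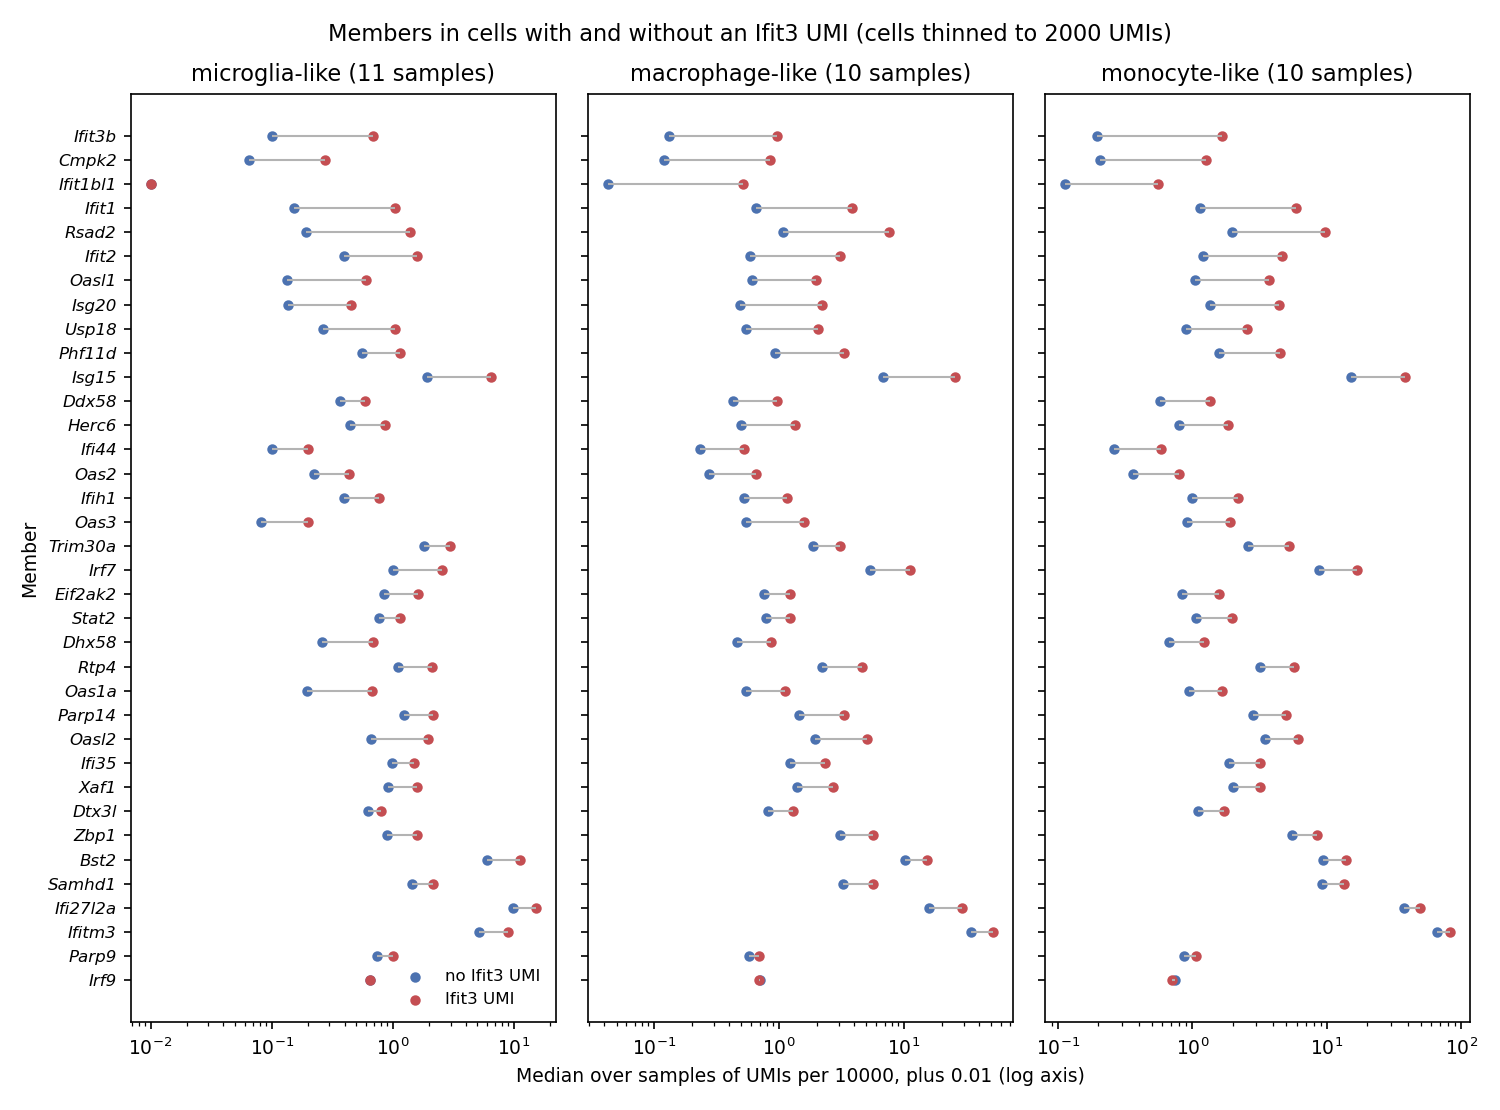
Level of each of the other members per 10000 UMIs in cells with and without a UMI of Ifit3, as medians over hashed samples of cells thinned to 2000 UMIs, in microglia-like (11 samples), macrophage-like (10) and monocyte-like cells (10). Most members lie above equality, and Irf9 lies close to it in each class.

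To see which other RNA and proteins go with the members, the 25% of cells with the highest and the 25% with the lowest thinned member sum were compared within each hashed sample. The members set these gates, so their own differences are a description: in microglia-like cells of 16 samples, 27 members passed the filter on low counts, from Irf9 (0.79) to Ifit1 (4.41). Of 25 pathway genes, 7 were higher and 2 lower in the high gate, against 19.5% and 16.1% of 7245 genes. The chemokine genes Cxcl9 (2.79 ± 0.57 SE, edgeR adjusted p = 0.00063, higher in 11 of 16), Cxcl10 (2.76 ± 0.37, edgeR adjusted p = 5.6e-06, 14 of 16) and Ccl12 (1.98 ± 0.19, edgeR adjusted p = 1.8e-08, 16 of 16) rose. Smaller rises were those of the DNA sensor Cgas (0.43), Tlr3 (0.31) and Irf8 (0.18). Ifngr1 (-0.59) and Jak1 (-0.29) were lower. Without pool 2 the counts were 3 higher and 1 lower, and under hashtags 3 to 6 the high gate held deeper cells, 12187 against 6230 median UMIs in the widest case, whose part in the result was not tested.

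In monocyte- and macrophage-like cells gated as 1 population (11 samples) all 37 members passed the filter, from Irf9 (0.58) to Ifit1bl1 (5.55). Of 26 pathway genes 19 were higher in the high gate, against 29.7% of 7602 genes called higher and 30.5% lower. Cxcl10 (3.57), Cxcl9 (2.08), Socs1 (1.96), Il6 (1.84), Irf1 (1.49) and Myd88 (1.49) rose, each in 11 of 11 samples, and the other 7, Ccl12 (0.15) among them, did not pass. Monocyte-like cells made up 51.6% to 93.01% of the high gate and 1.5% to 62.4% of the low gate, so class and interferon-induced level cannot be told apart in these gates. The high gate held shallower cells in 11 of 11 samples, 8987 against 17411 median UMIs in the widest case, where that of microglia-like cells under hashtags 3 to 6 held deeper ones. The part of depth in the differences of RNA and tags was not tested.

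Of the surface proteins, MHC class II and PD-L1 differed between the gates in opposite directions in the 2 populations. CD52 was higher in the high gate of both, less firmly in microglia-like cells. Tmem119 was lower in the high gate of both, less firmly in monocyte- and macrophage-like cells. CD11b and CD45 were lower in both too in centred log ratio, but not as raw tag counts in microglia-like cells. In microglia-like cells the MHC class II tag, for the proteins that present antigen to CD4 T cells, was higher in the high gate of 16 of 16 samples, by 0.0034 to 1.33 with a median of 0.117 in centred log ratio (the log of a tag count relative to the geometric mean of all tags of the cell). The mean difference was 0.407 (exact sign permutation test, two-sided, adjusted p = 0.00061 over 20 tests). PD-L1, an inhibitory ligand of T cells that interferon is known to raise, was higher by 0.277 (14 of 16, exact adjusted p = 0.00201), and CD52, a small glycoprotein of leukocytes, by 0.0573 (11 of 16, exact adjusted p = 0.0466). In pool 3 the CD52 difference ran from -0.0919 to 0.144. Without pool 1, and also without pool 2, 2 tags were called higher, and without pool 3 there were 3. Tmem119, a surface protein of homeostatic microglia, was lower by -0.483 (14 of 16, exact adjusted p = 0.00201). CD11b (-0.177) and CD45 (-0.116) were lower as well, but higher on the scale of raw tag counts (0.116 and 0.204). CD49d, CD74, Gr-1 and Ly6C did not pass. The size of the differences varied by hashtag, which was not tested. PD-L1 differed by -0.0296 to 0.0159 under hashtags 1 and 2 and by 0.154 to 0.623 under the other hashtags. For MHC class II these ranges were 0.0034 to 0.135 and 0.069 to 1.33, with overlap. For Tmem119 they were -0.207 to 0.0538 and -1.18 to -0.0312, also with overlap. Under hashtags 1 and 2 the gates had median member sums of 15 to 25 against 0 per 10000 UMIs.

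In monocyte- and macrophage-like cells MHC class II was lower in the high gate, the one with shallower cells, of 11 of 11 samples, by a mean of -1.03, with samples between -1.94 and -0.461. PD-L1 was lower by -0.745, while Ly6C, a protein of inflammatory monocytes, was higher by 0.815 and CD52 by 0.738, each in 11 of 11 samples (exact adjusted p = 0.00201 for all 4). Gr-1 (0.632) was higher in 10 of 11. CD74, the chaperone chain of MHC class II, was higher by 0.193 in 10 of 11, but lower (-0.123) as log2 of the share of all tag counts. Tmem119 was lower by -0.161 in 9 of 11 (exact adjusted p = 0.0126), at low levels in both gates (-2.94 against -2.78). Without pool 2 it did not pass (exact adjusted p = 0.125), and within monocyte-like cells alone it was at 0.0481. Gates set within macrophage-like cells alone, an alternative chosen after seeing the data, kept the direction for MHC class II (-0.424, 9 of 10 samples, exact adjusted p = 0.0161) and PD-L1 (-0.268, 10 of 10, exact adjusted p = 0.00601). Gates within monocyte-like cells alone did so too, at -0.973 and -0.744 in 9 of 9 samples (exact permutation, adjusted p = 0.00601 for both).

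**Figure D5:**
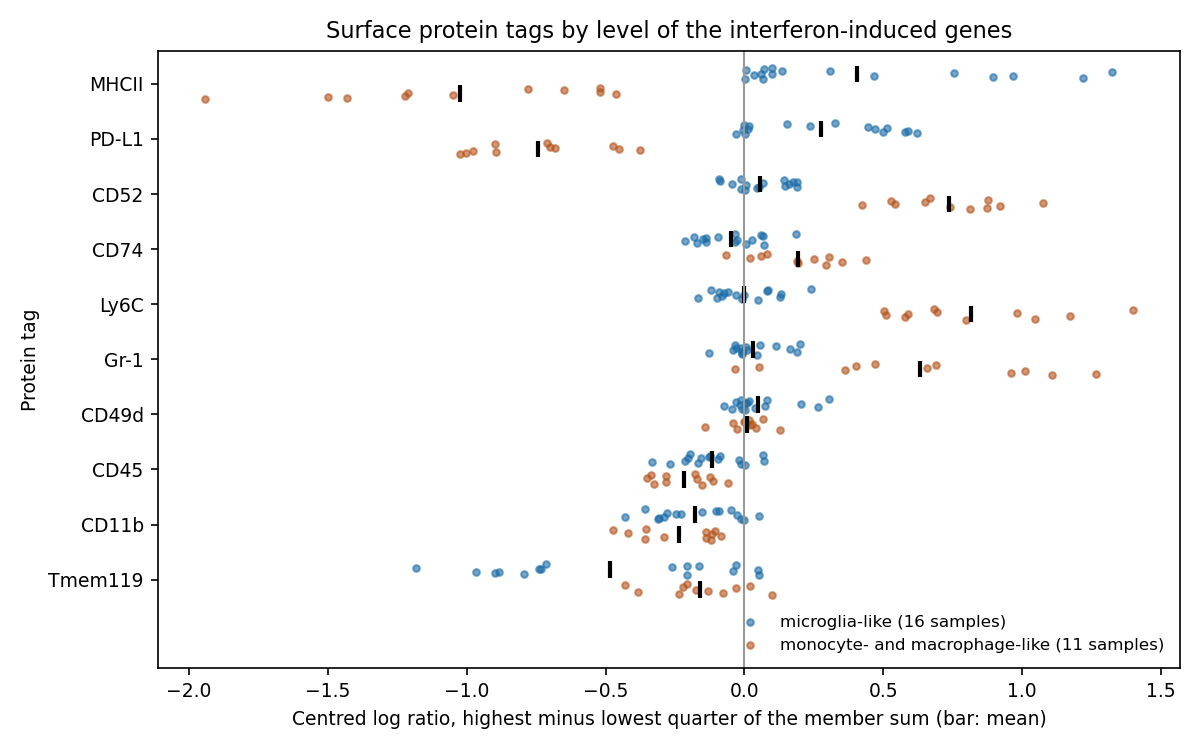
Difference of each of 10 antibody tags between cells of the highest and the lowest 25% of the member sum (centred log ratio, high minus low), 1 point per hashed sample with the mean, for microglia-like (16 samples) and monocyte- and macrophage-like cells (11 samples). MHC class II lies above 0 in 16 of 16 and PD-L1 in 14 of 16 samples of the first population, and both lie below 0 in 11 of 11 samples of the second. Under hashtags 1 and 2 the PD-L1 points of the first population lie between -0.0296 and 0.0159.

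Across the 18 hashed samples of microglia-like cells, the genes outside the set whose level followed the member sum most closely were Ifi209 (Pearson r of log2 values 0.987), Phf11b (0.986), Ifi207 (0.983), Slfn2 (0.982) and Selenow (0.982), of 5773 genes compared. Ifi209, for instance, ran from 8.48 CPM through a median of 63.6 to 96.5 CPM. The samples share pools and fall into a low and a high group, so r describes that split and is given without a p.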

How the data were processed

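Each of 3 pools gave an RNA library and an antibody-tag library. The deposited matrices hold UMI counts per barcode for genes and tags, which the authors made with 10x 3′ v3 chemistry, bcl2fastq 2.20.0.422, Seurat 3, build mm10 and Cell Ranger in versions 3.0.1 and 4.0.0, per the submitters' processing notes. The file headers name version 3.1.0 for pool 1 and version 4.0.0 for the other pools. Barcodes were kept from 500 UMIs and 200 genes upward with less than 10% of UMIs mitochondrial, and those with 1 hashtag at 80% or more of at least 10 hashtag UMIs were assigned. The pooling removes doublets between hashed samples by mixed hashtags, and within samples no doublet was removed, with a Scrublet limit of 0.2 as an alternative.

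Cells were clustered in Python 3.11.15 (scanpy 1.11.5, 2000 variable genes, 30 components, 15 neighbours, Leiden resolution 1) without interferon-induced genes. Clusters were named from marker lists by a scoring rule chosen after seeing the data, so shares of cells depend on rebuilt names. UMI counts were summed per hashed sample and class (at least 20 cells) and tested in R 4.3.3 with edgeR 4.0.16 (TMM, filterByExpr, quasi-likelihood test, Benjamini-Hochberg over all genes tested, threshold 0.05), with DESeq2 1.42.0 as an alternative. CPM are shares of the UMIs of a summed library, and since 3′ UMIs count molecules no length scaling was used. Tags were tested by exact two-sided sign permutation over hashed samples. The scripts were tested on simulated counts.

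Members and lists were chosen with earlier results of these data known. Full values are given for the 3 members of highest and the 3 of lowest log2 fold change among those called in each comparison, and other genes come from the pathway list or from the 5 most like genes. In the counts over the pathway list, 1 gene is included whose own values are not reported here.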

Additional observations from a re-analysis of the deposited data

Results flagged for a closer look

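The difference of a surface tag between cells with the highest and the lowest 25% of the member sum was set against the same difference in the other population, over the 9 hashed samples with gates in both. This test was added after seeing the data. For MHC class II the mean difference was 0.682 in microglia-like and -1.11 in monocyte- and macrophage-like cells, which is 1.79 apart in centred log ratio, positive in 9 of 9 samples (exact sign permutation p = 0.00391, the smallest that 9 samples can give, adjusted 0.00781 over 10 tags). For PD-L1 the differences were 0.476 and -0.731, which is 1.21 apart in 9 of 9 samples (exact adjusted p = 0.00781). On the scale of log2 of the share of all tag counts the gaps were 2.95 and 2.13, and on that of raw log2 counts 3.16 and 2.31. In the second population the gates also differ in class, since monocyte-like cells were 51.6% to 93.01% of the high gate. Within macrophage-like cells alone MHC class II differed by -0.424 and within monocyte-like cells alone by -0.973, in the same direction as in both together. In each of these 9 samples the high gate held deeper cells than the low gate among microglia-like cells and shallower ones in the second population, and the part of depth was not tested.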

How the results depend on the processing

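Of the counts and medians, 337 alternatives left the value within range and 18 moved it, and of the values of single genes and tags 4092 kept their call, 145 lost it, 31 gained it and 35 changed sign. No member lost its direction in the comparisons of monocyte-like with microglia-like, macrophage-like with monocyte-like or NK cell-like with monocyte-like cells. For clustering with interferon-induced genes this outcome was largely set in advance. There the only monocyte-like cluster (1440 cells) was led by the members Rsad2, Ifit3 and Ifit1. A cluster of 2833 cells led by Ly6i and Saa3 was unnamed. That setting therefore gives no independent support to these directions. The cause of the changes below was not tested unless the setting itself shows it.

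Library size alone shifted the median log2 fold change of all genes by -0.391 (monocyte-like against microglia-like), -0.3 (macrophage-like against microglia-like), 0.28 (NK cell-like), -0.112 (microglia-like gates) and -0.176 (monocyte- and macrophage-like gates). The share of calls that were higher went from 47.2% to 27.8%, 48.4% to 29.7%, 47.7% to 61.8%, 54.8% to 33.3% and 49.4% to 33.2%. Genes called higher numbered 2129 in place of 3353 and 2213 in place of 3438 in the first 2, and genes called lower 1936 in place of 1169 in the microglia-like gates. Jak1 (-0.20), Tyk2 (-0.0181) and Ifnar2 (-0.0538) in monocyte-like against microglia-like cells and Herc6 (-0.00544), Trim30a (-0.12), Stat2 (-0.0672), Irf5 (-0.0445) and Ifngr2 (-0.0238) in macrophage-like against microglia-like cells changed sign. Members lower in the latter went from 0 to 2, pathway genes higher in macrophage-like than monocyte-like cells from 1 to 3, and pathway genes lower in the monocyte- and macrophage-like high gate from 0 to 1.

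With interferon-induced genes in the clustering, macrophage-like against microglia-like cells had 2 members lower and opposite signs for Herc6 (-0.23), Trim30a (-0.0408), Stat2 (-0.00961), Ifit3 (-0.0468) and Ifit3b (-0.175). Macrophage-like against monocyte-like cells had 2 pathway genes higher, Ifi44 in dendritic cell-like cells was at -0.51, and genes called lower in NK cell-like cells numbered 1449 in place of 2205. At Leiden resolution 0.5 these were 2 members lower, Herc6 (-0.15), Trim30a (-0.000143), Stat2 (-0.00391), Ifit3b (-0.0689), 3 pathway genes and Ifi44 (-0.0739). With HTODemux hashtag calls Ifi44 was at -0.0659 and the Ly6C tag of microglia-like cells at 0.00365.

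Without a replicate block for the hashed sample, the microglia-like gates had 1057 genes higher and 535 lower, against 1415 and 1169. On pool sums with pool as replicate block, 1 member (Eif2ak2) was lower in macrophage-like than microglia-like cells, and pool means as block put the Ly6C tag at 0.00712, where 3 pools allow no call. Leaving out each pool in turn gave 3 to 6 pathway genes higher and 8 to 13 lower in dendritic cell-like cells, 3 to 6 higher and 1 to 2 lower in the microglia-like gates, Ifi35 between -0.0775 and 0.0219 in dendritic cell-like cells and the Ly6C tag of microglia-like cells between -0.0251 and 0.0163. Genes called in the microglia-like gates numbered 764 higher and 447 lower without pool 1 and 757 and 471 without pool 2. Without pool 2 there were 1063 and 1083 in dendritic cell-like and 1648 higher in macrophage-like against monocyte-like cells. With no filter on low counts 3727 genes were lower in NK cell-like cells.

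As raw log2 counts, 9 tags of microglia-like cells were higher and 1 lower (3 and 3 in centred log ratio), with CD11b (0.116), CD45 (0.204), CD74 (0.302) and Ly6C (0.370) changing sign. As log2 of the share of all tag counts, CD74 (0.00485) and Ly6C (0.0113) did so, and in monocyte- and macrophage-like cells CD49d (-0.447) and CD74 (-0.123), leaving 2 tags higher in place of 4. In gates within 1 class alone CD49d was at -0.0465 (macrophage-like) and Tmem119 at 0.0481 (monocyte-like). Without Ifitm3, Ifi27l2a and Isg15 the median sum was 105 in place of 268 in monocyte-like and 72.6 in place of 184 in dendritic cell-like cells.

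Depth limits the weakest members: Oas2 had 2 and Phf11d 10 UMIs in the NK cell-like samples, and Ifit1bl1 had 32 in the microglia-like ones. Pool 3 holds 1888 of 22145 assigned cells.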

Other observations

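RNA of the interferons themselves was rare. Over the 36214 kept barcodes Ifnb1 had 443 UMIs in 129 barcodes, Ifna2 had 7 and Ifna4 had 1, while Ifng had 2019 UMIs in 1123 barcodes and Il6 2114 in 1636. Ifna1 and Ifna5 were listed at 0. Pool 2 held 322 of the Ifnb1 UMIs in 22 barcodes, 198 of them in a single barcode. Pool 1 held 18 in 10 barcodes, and pool 3 held 103 in 97 barcodes, none with more than 2.

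Among the assigned cells Ifnb1 was found in 28 of 22145, and 21 of these were microglia-like, as were 10126 of all 22145. Of the 21, 12 held exactly 1 Ifnb1 UMI. The microglia-like cluster led by Tnf, Cst7 and Ccl4 held 287 UMIs in 14 of its 1117 cells (1.25%), 10 of them in pool 2, 3 in pool 1 and 1 in pool 3. Macrophage-like cells held 5 UMIs in 3 cells, monocyte-like cells 1 UMI in 1 cell and dendritic cell-like cells 14 UMIs in 1 cell. The cell with 198 Ifnb1 UMIs lay under hashtag 3 of pool 2, held 19628 UMIs in all and had a member sum of 326 per 10000. The next 2 microglia-like cells held 43 and 18 Ifnb1 UMIs and had member sums of 185 and 224, all above the highest sample mean of microglia-like cells (84.4). These cells were singled out after their values were seen.

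The labels put no hashed sample in a group, and the member sums of microglia-like cells fell into 2 separate ranges. Under hashtags 1 and 2 they were 13.4 and 9.80 per 10000 UMIs in pool 1, 11.8 and 9.01 in pool 2 and 12.0 and 9.78 in pool 3. Under hashtags 3, 4, 5 and 6 they were 54.7, 49.98, 84.4 and 48.7 in pool 1, 48.8, 41.5, 58.1 and 45.4 in pool 2, and 42.2, 44.2, 43.3 and 64.7 in pool 3. Macrophage-like samples, found under hashtags 3 to 6, stood at 173, 127, 189 and 106 in pool 1 and at 255, 74.1, 117 and 61.5 in pool 2. In pool 3 those under hashtags 4, 5 and 6 stood at 214, 74.3 and 99.6. No test was made between hashtags.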
